A study of Sus scrofa with 5 samples.

Results

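Among the cells of day 6 porcine blastoids, 731 of 15544 carried many transcripts of *ISG15*, and these ISG15-high cells are described here. Cells were barcodes with at least 11223 UMIs (unique molecular identifiers, 1 per captured mRNA molecule) in library 1 or 9805 in library 2. An ISG15-high cell held at least 10 UMIs of *ISG15*, fewer than 10 of *GABRP*, fewer than 15 of *CRABP1* and fewer than 10 of *COL3A1* and *COL1A2* added up. The rule found 356 of 7369 cells (4.83%) in library 1 and 375 of 8175 cells (4.59%) in library 2. These 5 genes chose the cells, so their values are a description and were not tested. The name of the cells was also given with earlier results of these data known, so the counts of interferon genes below are not independent evidence for it.

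Blastoids are blastocyst-like structures made from pluripotent cells. Here they came from porcine embryonic stem cells (pESCs) of parthenogenetic blastocysts, aggregated without attachment and kept in iBlastoid medium. This medium holds LIF, IL-6 with its soluble receptor, activin A, BMP4, CHIR99021, DZNep and TSA among others. On day 6 blastoids with a cavity were picked by hand and dissociated, and their cells were run on 10x Genomics Chromium as 2 libraries, the replicates of 1 condition. The pESCs in 4FIXY medium were also sequenced in bulk as 3 libraries, and these samples hold no comparison of treatments or genotypes.

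*ISG15* encodes a small ubiquitin-like protein that cells make after interferon or viral RNA is sensed. Interferons bind receptors that activate transcription factors such as STAT2, which joins IRF9 to switch on interferon-stimulated genes through a DNA element in their promoters. Pluripotent cells are known to answer interferon weakly, and the pig conceptus is known to secrete interferons from its trophectoderm before it attaches.

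To see how often this element occurs, promoters were taken from Sscrofa11.1 (susScr11), 250 bases before to 50 bases after the annotated gene start. They were searched on both strands for the core of the element, taken as 2 copies of GAAA parted by any 2 bases (2 copies of TTTC when read on the other strand). The letters were found in 694 of 19500 promoters of protein-coding genes (3.56%). Among genes higher in ISG15-high cells than in the cells compared below, 17 of 53 promoters of interferon genes (32.1%), 5 of 57 promoters of genes outside the interferon lists (8.77%) and, for lower genes, 1 of 31 (3.23%) held them. Of interferon effectors tested and not called 4 of 21 (19%) held them too. Of the 5 genes outside the lists, 3 are interferon genes by their annotated names, *ISG12(A)* and 2 transmembrane genes of chromosome 2, and the others are *SLC2A12* and *GNB4*. A match is a description of the letters and not a bound site.

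The libraries held 289452283 and 302211552 UMIs, and 87.8% and 87.7% of them were in cells. The median cell had 29728 UMIs in library 1 and 27588 in library 2. Of all cell barcodes 9 occurred in both libraries. An ISG15-high barcode of 1 library was a cell of the other library in 1 case, and none was ISG15-high in both. ISG15-high cells had median depths of 30254 and 27918 UMIs, against 29961 and 27830 in cells that met the same limits with fewer than 10 *ISG15* UMIs, called ISG15-low cells here (4421 and 5346 cells). Genes detected at an equal depth of 15000 UMIs were 4560 and 4539 at the median, against 4594 and 4602, and the mitochondrial share was 0.645% and 0.580%, against 0.639% and 0.606%. Depth and mitochondrial share thus lay close in both kinds of cell, and 14 and 26 ISG15-high cells were above the 95th percentile of UMIs of their library.

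*ISG15* was at 0 or 1 UMI in 83.4% of cells of library 1 and 85.0% of library 2. Within the limits on the other genes, 337 and 366 cells had 2 to 4 UMIs, 80 and 84 had 5 to 9, 88 and 92 had 10 to 19, and 268 and 283 had 20 or more. At the edge of the rule, 10 and 12 cells had 9 UMIs, and 8 and 14 cells had 10. ISG15-high cells had a median of 37 *ISG15* UMIs (10 to 220) in library 1 and 34 (10 to 430) in library 2.

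In summed counts *ISG15* was at 1363 and 1334 CPM (UMIs of the gene per 1000000 UMIs of the group) in ISG15-high cells, 15.0 and 14.4 CPM in ISG15-low cells and 55.4 and 56.7 CPM in all other cells. Empty droplets, barcodes with 10 to 100 UMIs that hold free RNA, stood at 151 and 135 CPM. The limit of 10 UMIs itself puts ISG15-high cells above the free RNA and ISG15-low cells low, so nothing is read from this order. They held 55.0% and 54.7% of the *ISG15* UMIs of all cells. Cells with 10 or more *ISG15* UMIs of any kind held 88.6% and 89.0%, since 222 and 210 of them were outside the limits on *GABRP*, *CRABP1* and the collagens.

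**Figure D1:**
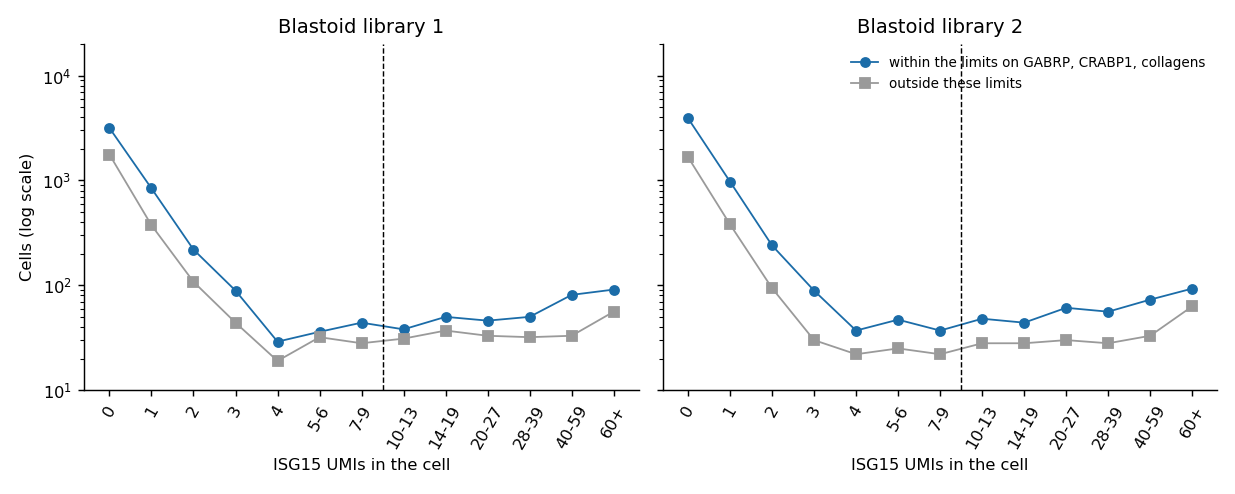
*ISG15* UMIs per cell in library 1 (left) and library 2 (right). Points give the number of cells (log scale) in each class of UMI number, blue within and grey outside the limits on *GABRP*, *CRABP1* and the collagens, and the classes widen to the right. The dashed line is the limit of 10 UMIs, and within the limits 3164 and 3922 cells had no UMI while 29 and 37 had 4.

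The rise of *ISG15* came with other interferon genes, cell by cell. For 6 such genes chosen after their values were seen (*IFI6*, *IFITM3*, *IFI44L*, *MX1*, *B2M*, *IRF9*), the UMIs of each cell were added up. The median was 32 and 28 UMIs in ISG15-high cells and 1 and 1 in ISG15-low cells. At least 10 were found in 82.0% and 81.9% of ISG15-high cells, against 1.61% and 1.27% of ISG15-low cells. At most 2 were found in 2.25% and 2.13% of ISG15-high cells and in 73.7% and 74.7% of ISG15-low cells. The genes were picked for being high in these cells, so the shares describe how they fall together and support nothing.

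These levels were graded. *IFI6*, which encodes a mitochondrial membrane protein that protects infected cells, was at 31.4 and 32.3 CPM in cells with no *ISG15* UMI, at 97.8 and 69.6 CPM with 5 to 9, at 243 and 312 CPM with 10 to 19, and at 1426 and 1285 CPM with 80 or more. *IFITM3*, a membrane protein that blocks virus entry, went from 7.75 and 7.89 CPM over 123 and 152 CPM to 786 and 695 CPM in the same steps from none over 10 to 19 to 80 or more. *B2M*, the light chain of MHC class I, went from 9.95 and 9.03 CPM to 362 and 304 CPM. Both libraries showed the same order from step to step for these 3 genes above 1 UMI.

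Of the trophectoderm markers, *GATA3* and *KRT8* were followed over this scale and were at much the same level at both ends. Other markers of that list were higher in ISG15-high cells, as given below. *GATA3* was at 130 and 126 CPM with no *ISG15* UMI and at 116 and 123 CPM with 80 or more, and *KRT8* at 4339 and 4089 CPM against 4458 and 4143 CPM. *POU5F1*, which keeps cells pluripotent, was at 73.2 and 109 CPM with no *ISG15* UMI, at 167 and 204 CPM with 2 to 4, at 49.0 and 118 CPM with 10 to 19 and at 41.0 and 21.5 CPM with 80 or more. These are sums over cells, so fewer cells with *POU5F1* and less *POU5F1* in each are not separated here.

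**Figure D2:**
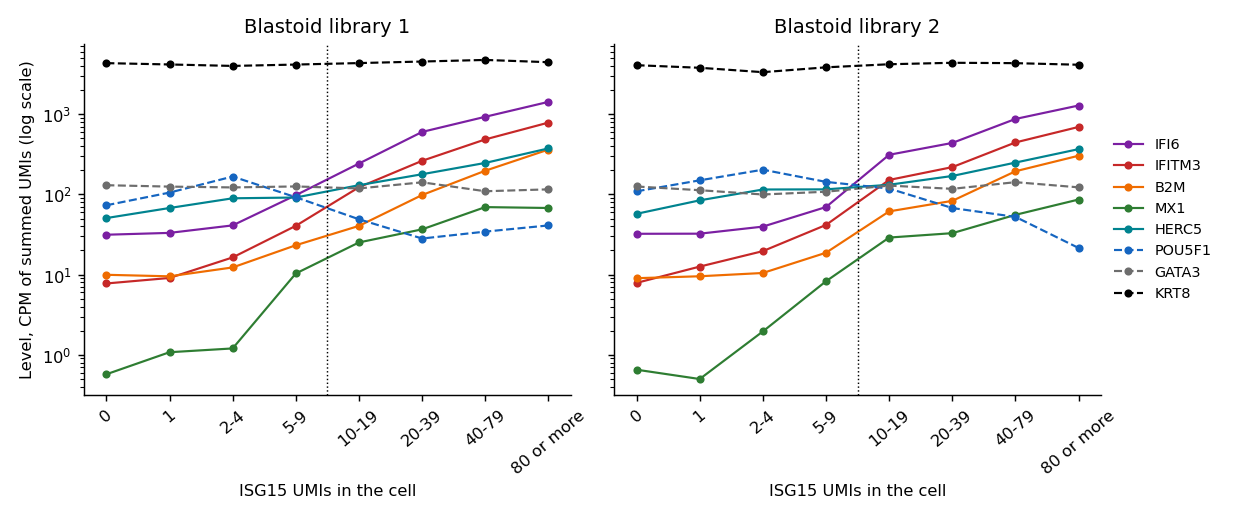
Level (CPM of summed UMIs, log scale) of 8 genes against the number of *ISG15* UMIs in the cell, for cells within the limits of library 1 (left) and library 2 (right). The dotted line is the limit of 10 UMIs, solid lines are interferon genes and dashed lines are *POU5F1*, *GATA3* and *KRT8*. *IFI6* ends at 1426 and 1285 CPM, while *GATA3* stays between 99.8 and 142 CPM.

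To ask what else set these cells apart, UMIs were summed per library and tested with edgeR's quasi-likelihood test at an adjusted p below 0.05. Against ISG15-low cells 118 of 19002 genes were higher (0.621%) and 33 were lower (0.174%). Against all other cells 182 of 20036 genes were higher (0.908%) and 305 were lower (1.52%), and 99 and 21 genes were called in the same direction in both comparisons, which share the ISG15-high cells. With the library as a block the counts were 1354 higher (7.13%) and 1004 lower (5.28%) against ISG15-low cells, and 1085 (5.42%) and 1426 (7.12%) against all other cells. The block added genes and lost none of the calls made without it. Scaling by total counts in place of TMM gave 110 higher and 73 lower genes against ISG15-low cells. The median log2 fold change over all genes tested was -0.0063 against ISG15-low cells and -0.0049 against all other cells. Only ISG15-low cells have the same limits on *GABRP*, *CRABP1* and the collagens, so values below refer to them unless all other cells are named. Each group has 2 sums, cells are not replicates, and the p-values measure the spread between 2 libraries, which may be technical.

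**Figure D3:**
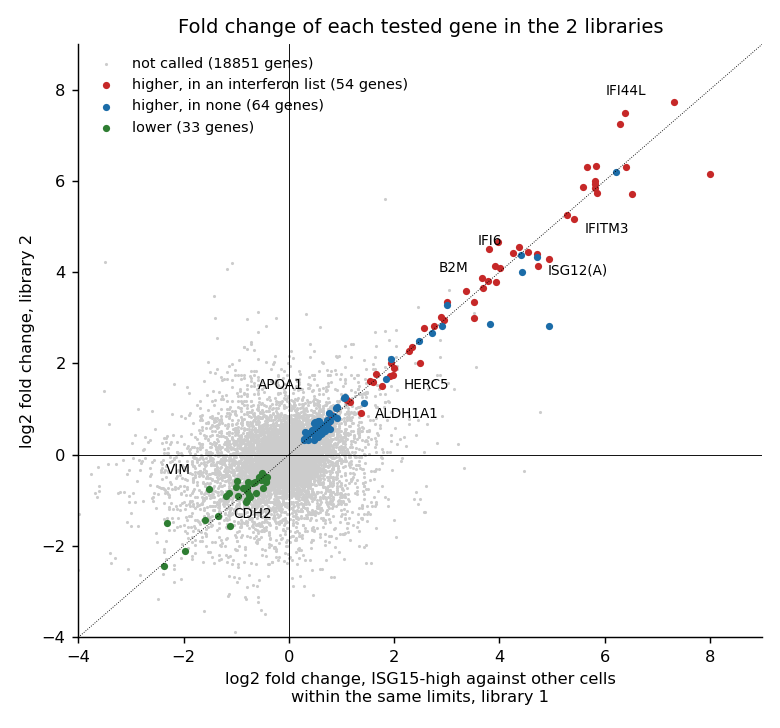
Log2 fold change of each tested gene, ISG15-high against ISG15-low cells, in library 1 (x axis) and library 2 (y axis). Grey points were not called, red points are higher genes of an interferon list (54), blue points other higher genes (64), and green points lower genes (33). The dotted line marks equal change, and 588 uncalled genes lie beyond the axes. The called genes lie near the line, with *IFI44L* at 7.33 and 7.72.

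Interferon-stimulated antiviral effectors made up most of the largest changes. Of 86 genes listed, 68 are in the files and 58 passed the filter on low counts. Of these 37 were higher (over all genes tested 0.621%), 0 were lower at adjusted p below 0.05 in edgeR, and the median log2 fold change was 2.19. Genes near absent in ISG15-low cells could pass the filter through ISG15-high cells alone, so this count and median are raised by such genes. *IFI6* was at 762 and 703 CPM in ISG15-high cells and at 34.0 and 33.7 CPM in ISG15-low cells, a log2 fold change of 4.50 ± 0.06 (SE; edgeR adjusted p = 3.57e-07). *IFITM3* was at 391 and 363 CPM against 9.47 and 10.6 CPM, a log2 fold change of 5.29 ± 0.08. Neither of the libraries stood apart for these genes.

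Further effectors, chosen after their values were seen, changed more. *IFI44L* (chr6:134660230-134679212, minus strand), which dampens the antiviral answer, was at 88.0 and 88.0 CPM against 0.57 and 0.43 CPM. *MX1* (chr13:204843049-204868927, plus strand), a GTPase that traps viral nucleocapsids, was at 50.1 and 49.0 CPM against 0.92 and 0.89 CPM. *LGALS3BP* was at 50.9 and 46.7 CPM against 0.62 and 0.61 CPM. Their log2 fold changes were 7.52 ± 0.11, 5.84 ± 0.08 and 6.36 ± 0.09, and all were near absent in ISG15-low cells. *OAS1*, a sensor that makes the activator of RNase L, reached 11.6 and 11.1 CPM against 0.21 and 0.19 CPM.

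Not every gene of this list moved. Of its most abundant genes *SHISA5* (71.9 and 68.4 CPM against 24.8 and 23.6) and *CNP* (57.0 and 58.1 CPM against 35.4 and 37.6) rose. *LAP3*, an aminopeptidase, was at 145 and 156 CPM against 164 and 166 CPM, a log2 fold change of -0.07 that did not pass (edgeR adjusted p = 0.661). *LY6E* was at 10.98 and 12.5 CPM against 12.8 and 17.1 CPM (edgeR adjusted p = 0.533, and 0.0317 with the block), and *IFIT2* was at 0.17 and 0 CPM against 0.14 and 0.15 CPM. *IFIT3*, from the same family as *IFIT2*, was at 2.08 and 1.70 CPM against 0.0068 and 0.024 CPM. It passed the filter on low counts only through ISG15-high cells.

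A run of interferon-induced transmembrane genes on chromosome 2 rose together. Besides *IFITM3* it holds *IFITM1* (33.9 and 33.1 CPM against 0.62 and 0.54 CPM) and 3 genes without a given symbol. The largest of these, LOC100626247 (chr2:133896-135271, minus strand), was at 317 and 284 CPM against 4.41 and 4.05 CPM, a log2 fold change of 6.21 ± 0.08. Near-identical copies can share or lose reads, so the level of each single copy is uncertain.

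The machinery that joins ISG15 to other proteins and takes it off also rose, in 4 of 6 genes tested (over all genes tested 0.621%). *HERC5*, the main ligase for ISG15, was at 223 and 223 CPM against 58.7 and 69.4 CPM, a log2 fold change of 1.86 ± 0.09. *USP18*, which removes ISG15 and also blocks the interferon receptor, was at 32.9 and 20.3 CPM against 1.28 and 1.21 CPM. *HERC6* and *TRIM25* were the other genes called, with log2 fold changes of 4.03 and 3.86. *UBE2L6*, the conjugating enzyme, was at 1.33 and 0.77 CPM against 0.51 and 0.66 CPM and did not pass. *UBA7*, which activates ISG15, had almost no UMIs, with 0 and 0.077 CPM in ISG15-high cells.

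In the list of sensors of foreign nucleic acid and their adaptors 4 of 13 genes tested rose (over all genes tested 0.621%), with a list median of 0.12. All 4 are sensors of RNA. *EIF2AK2*, the kinase that halts translation upon double-stranded RNA, was at 202 and 192 CPM against 55.1 and 60.9 CPM. *DDX58*, which encodes RIG-I, was at 35.9 and 41.4 CPM against 4.67 and 4.27 CPM, a log2 fold change of 3.18 ± 0.10. *IFIH1* and *DHX58* were also higher, by 3.42 and 5.26. The kinase *TBK1*, which passes on their signal, was at 31.4 and 28.8 CPM against 29.4 and 28.4 CPM and did not pass (edgeR adjusted p = 0.512).

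In the signalling list 3 of 21 genes rose, and 7 with the library as a block (over all genes tested 0.621% and 7.13%). Among them, *IRF9* was at 77.6 and 74.9 CPM against 4.22 and 3.63 CPM, and *IRF7*, which amplifies interferon production, at 32.9 and 32.4 CPM against 4.42 and 4.41 CPM. Their log2 fold changes were 4.34 ± 0.09 and 2.95 ± 0.08. The receptor chains were detected in both kinds of cell. *IFNAR1* was at 9.23 and 8.81 CPM against 8.38 and 7.51 CPM, *IFNAR2* at 28.6 and 21.8 CPM against 25.1 and 22.1 CPM, and *IFNLR1* at 3.83 and 3.79 CPM against 5.09 and 5.22 CPM, and none passed. *STAT2* was at 10.5 and 9.82 CPM against 6.84 and 6.39 CPM, just short of the threshold (edgeR adjusted p = 0.0577, and 6.42e-05 with the block).

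Transcripts of the interferons themselves were nearly lacking. The files hold 34 interferon genes, and in ISG15-high cells 1 of them, *IFNE*, had any UMI, with 14 and 19 UMIs. That is 1.16 and 1.47 CPM, against 1.48 and 1.21 CPM in ISG15-low cells and 2.62 and 2.22 CPM in all other cells, and neither difference passed. For each of the other genes a count of 0 allows up to 0.249 and 0.232 CPM (3 counts), for counting error only. *IFNG*, which the pig trophectoderm is known to secrete, had 0 UMIs in ISG15-high cells and 3 and 0 UMIs in all other cells.

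Of 20 genes of MHC class I and antigen presentation tested, 6 rose (over all genes tested 0.621%), with a list median of 1.06. With the block 13 were higher and 1 lower (over all genes tested 7.13% and 5.28%). *B2M* was at 162 and 154 CPM against 10.3 and 9.45 CPM, a log2 fold change of 4.06 ± 0.07 (edgeR adjusted p = 4.95e-07), and the symbol stands at 2 loci of the annotation. *TAP1*, which carries peptides to MHC class I, was at 27.5 and 25.8 CPM against 9.07 and 7.93 CPM. The proteasome activators *PSME1* (115 and 117 CPM against 53.3 and 55.2) and *PSME2* (77.8 and 89.4 CPM against 37.5 and 40.6) rose by 1.16 and 1.16 on the log2 scale. The heavy chains moved less evenly. *SLA-1* was at 1.58 and 1.78 CPM against 0.62 and 0.74 CPM and *SLA-3* at 1.66 and 1.78 CPM against 0.54 and 0.65 CPM, both short of the threshold (edgeR adjusted p = 0.107 and 0.0713, and 0.0073 and 0.00221 with the block), while *SLA-6* and *SLA-8*, at 35.8 and 37.3 CPM and 40.2 and 44.0 CPM, had log2 fold changes of 0.13 and -0.05. Reads of such paralogues can be split or lost, so single heavy chains are uncertain.

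Lists of other responses held no call at an adjusted p below 0.05 in edgeR against ISG15-low cells. These were 12 tested genes of STAT3 and its feedback (median log2 fold change -0.02), 16 of NF-kB and inflammation (-0.03), 18 of p53 and apoptosis (0.11), 4 of pyroptosis and necroptosis (-0.07), 14 immediate early and heat shock genes (0.02), 14 of the unfolded protein and integrated stress response (0.10), and 14 of hypoxia and glycolysis (0.05). At an unadjusted p below 0.05 the same lists held 1, 2, 6, 0, 2, 4 and 2 higher genes and 1, 0, 1, 0, 0, 1 and 1 lower genes in this order. Over all genes tested 7.37% were higher and 6.38% lower at this threshold, and DESeq2 called 1.94% higher and 0.916% lower. In these lists DESeq2 called 1 gene of NF-kB, 3 of p53 and 1 of the immediate early list higher, and 1 of hypoxia lower. *NFKBIA*, the inhibitor induced by NF-kB, was at 17.1 and 16.2 CPM against 16.6 and 16.9 CPM, and *ATF4* was at 287 and 282 CPM against 278 and 278 CPM (edgeR adjusted p = 0.447, and 0.0159 with the block). With the block, 5 genes of p53 and apoptosis, 4 immediate early and heat shock genes and 4 of the unfolded protein response were higher, and 2 genes of NF-kB and 2 of hypoxia as well, while 1 gene each of STAT3, NF-kB, p53, the immediate early list and hypoxia was lower. Over all genes tested the block called 7.13% higher and 5.28% lower. *GADD45A*, a p53 target that slows division, was at 248 and 237 CPM against 206 and 205 CPM (edgeR adjusted p = 0.0534, and 2.44e-10 with the block).

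Division genes and silencing genes held no call either against ISG15-low cells as a whole. Medians were -0.10 for 20 S phase genes, -0.03 for 20 genes of G2 and M phase and -0.03 for 15 genes of DNA methylation and silencing of repeats. These are mRNA levels, and the activity of the proteins was not measured. At an unadjusted p below 0.05 in edgeR 3 S phase genes and 3 silencing genes were lower and 0 of G2 and M phase differed, and DESeq2 called 1 S phase gene lower. *PCNA*, the clamp of DNA replication, was at 121 and 132 CPM against 149 and 158 CPM, and *TOP2A* at 202 and 186 CPM against 196 and 202 CPM. *DNMT1* was at 89.9 and 90.7 CPM against 93.9 and 101 CPM, and *TRIM28* at 210 and 222 CPM against 240 and 251 CPM. With the block 1 S phase gene and 1 gene of G2 and M phase were higher, and 4 S phase genes, 1 of G2 and M phase and 4 silencing genes were lower, among them *PCNA* (edgeR adjusted p = 0.000547) and *TRIM28* (edgeR adjusted p = 0.00132). The shares with the block over all genes tested were 7.13% higher and 5.28% lower.

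**Figure D4:**
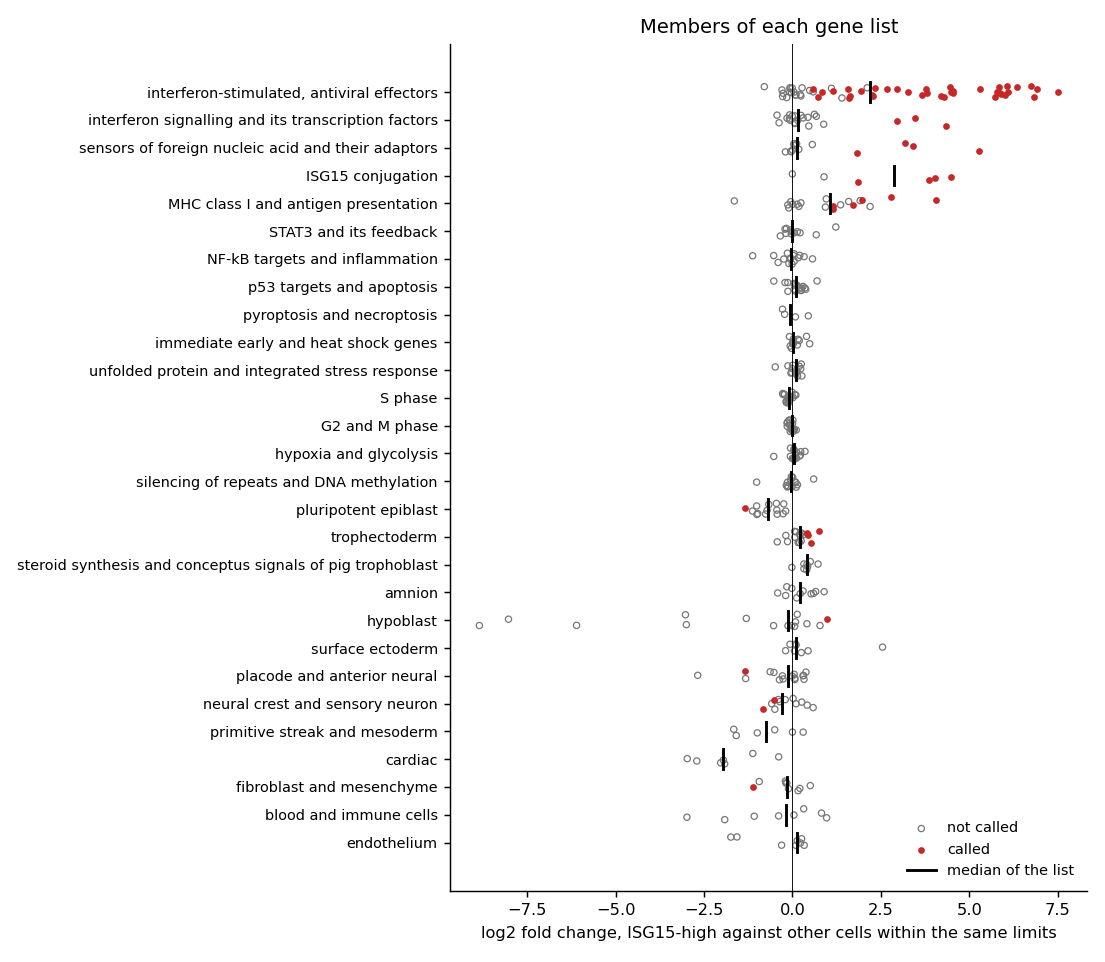
Log2 fold change of ISG15-high against ISG15-low cells (x axis) for the tested genes of each list (rows). Filled red points were called, open points were not, and the bar is the median of the list. The interferon effectors (median 2.19) and the genes of ISG15 conjugation (median 2.86) lie to the right, the cardiac list (median -1.95) to the left, and 3 hypoblast genes beyond -5 had 0 or 1 UMI in ISG15-high cells.

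Beyond the interferon lists, 64 of the 118 higher genes remained, 11 of them without a given symbol. Some of these 11 are interferon genes by their annotated names, as the transmembrane genes of chromosome 2. Others are annotated as like *SP140*, *ADAR* or *GBP6*, which are in the lists. A gene outside the lists can thus still be an interferon gene. A fixed rule named those called in both comparisons, in the same direction in both libraries, with at least 30 CPM in the higher group. It was passed by 26 higher and 6 lower genes, 2 and 1 of them without a symbol. The 15 with the largest rise among those with a symbol are described, led by *ISG12(A)*, which by its name in the annotation is itself an interferon gene. It was at 445 and 424 CPM against 17.7 and 21.9 CPM, a log2 fold change of 4.51 ± 0.11. After it the changes were much smaller, from 0.57 to 1.28 on the log2 scale.

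*ALDH1A1* (chr1:226163347-226217342, minus strand), an enzyme that makes retinoic acid, was at 40.4 and 36.0 CPM against 15.6 and 17.2 CPM in ISG15-low cells and 13.98 and 15.7 CPM in all other cells. Its log2 fold change was 1.28 ± 0.09 (edgeR adjusted p = 0.00107). *APOA1* (chr9:44216481-44218360, minus strand), a lipid carrier made by visceral endoderm and liver, was at 326 and 341 CPM against 180 and 174 CPM, a log2 fold change of 0.98 ± 0.05. It was at 307 and 314 CPM in empty droplets, so free RNA held nearly as much of it.

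*NQO1*, a quinone reductase, was at 160 and 153 CPM against 110 and 105 CPM, a log2 fold change of 0.60 ± 0.05 (edgeR adjusted p = 0.0029). *SOD3*, which removes superoxide outside the cell, was at 445 and 373 CPM against 289 and 246 CPM, and *SLC7A11*, which imports cystine, at 52.9 and 55.1 CPM against 33.1 and 37.0 CPM. The rule that named these genes asks for the same direction in both libraries, so nothing is read from their rise in both. The other genes were *EPHA6*, *GRINA*, *C6H16orf74*, *FAM76A*, *HPSE2*, *RAB38* and *NCKAP5*, with log2 fold changes from 0.57 to 0.68.

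*AGRN* lies next to *ISG15*. Agrin, its product, is a proteoglycan of basement membranes. *AGRN* starts 1806 bases beyond the end of *ISG15* on the same strand, and was at 73.4 and 84.9 CPM against 44.9 and 47.4 CPM, a log2 fold change of 0.84 ± 0.09 (edgeR adjusted p = 0.00992). *FAM76A* lies 21968 bases from *IFI6* and *GRINA* 2367 bases from the higher gene *PARP10*, both on the opposite strand. Of 62 higher genes outside the interferon lists with a single place on a chromosome, 8 (12.9%) were within 100000 bases of a higher interferon gene or *ISG15*, against 217 of 18520 tested genes outside the lists (1.17%). Of the 8 genes, 3 were the transmembrane genes next to *IFITM3*. Whether reads of *ISG15* run on into *AGRN* was not tested.

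Of the lower genes 5 were named by the rule. *VIM*, the intermediate filament of mesenchymal cells, was at 22.4 and 31.5 CPM against 66.6 and 55.2 CPM in ISG15-low cells and 162 and 115 CPM in all other cells, a log2 fold change of -1.11 ± 0.16 (edgeR adjusted p = 0.0394). *CDH2*, the cadherin of neural and mesodermal cells, was at 29.9 and 38.9 CPM against 71.1 and 76.2 CPM, a log2 fold change of -1.03 ± 0.12. *FAM155A*, *CNTNAP2* and *PRSS16* had log2 fold changes of -0.89, -0.79 and -0.46.

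Which cell types the ISG15-high cells came from was read from marker lists, which were chosen with results of these data known. The trophectoderm genes had a summed level of 11290 and 11160 CPM against 10260 and 9865 CPM in ISG15-low cells, a sum to which *KRT8* alone gave 4552 and 4284 CPM in ISG15-high cells. Of 17 such genes 4 were higher, and with the block 11 were higher and 1 was lower (over all genes tested 7.13% and 5.28% with the block). Among them were *SFN* (169 and 176 CPM against 122 and 129), *KRT7* (294 and 314 CPM against 239 and 236) and *DAB2* (59.3 and 63.6 CPM against 45.6 and 47.9). Empty droplets held more *SFN* (218 and 198 CPM) and *KRT7* (372 and 343 CPM) than ISG15-high cells, and less *DAB2* (20.1 and 23.0 CPM). *GATA3*, a defining factor of trophectoderm, was at 121 and 129 CPM against 128 and 120 CPM, and *CDX2* was near absent, at 0 and 0.85 CPM against 0.54 and 0.69 CPM. Against all other cells 1 gene of the list was higher and 1 was lower (over all genes tested 0.908% and 1.52%). The summed level there was 11890 and 11360 CPM, above that of ISG15-high cells. *SFN* (169 and 171 CPM), *KRT7* (310 and 308 CPM) and *DAB2* (59.0 and 59.8 CPM) were not called against all other cells. Under the added limits described below 2 of 17 genes were higher than in ISG15-low cells (0.585% over all genes tested), with a median log2 fold change of 0.10.

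Epiblast genes were lower in value in both libraries. Their summed level was 295 and 377 CPM against 498 and 620 CPM, and the median log2 fold change of 14 genes was -0.69. Of these 1 was called lower, and 10 with the block, which called 5.28% of all genes tested lower. The called gene was *PRDM14*, a factor of pluripotent and germ cells, at 2.41 and 1.86 CPM against 5.46 and 5.74 CPM. *POU5F1* was at 37.5 and 65.6 CPM against 89.2 and 127 CPM, a log2 fold change of -1.002 ± 0.27 that did not pass (edgeR adjusted p = 0.178, and 9.37e-16 with the block). Library 2 was the higher one in both kinds of cell.

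Cardiac genes had the lowest median of all the lists. Their sum was 33.4 and 74.1 CPM against 317 and 157 CPM, with a median log2 fold change of -1.95 over 7 genes, of which 0 were called in edgeR, 6 were lower at an unadjusted p below 0.05, 2 were lower in DESeq2 and 6 were lower with the block. *MYL7*, a myosin light chain of the atrium, was at 7.49 and 27.5 CPM against 96.9 and 54.8 CPM (edgeR adjusted p = 0.149, and 6.77e-09 with the block). By library its log2 fold change was -3.64 and -0.93, so the size rests on library 1. Of 15 hypoblast genes *APOA1* was the only call in edgeR, while 5 were lower at an unadjusted p below 0.05, 2 in DESeq2, 8 with the block and 4 against all other cells. Over all genes tested, the shares lower were 0.174% in edgeR and 6.38% at an unadjusted p below 0.05. They were 0.916% in DESeq2, 5.28% with the block and 1.52% against all other cells. *GATA6* was at 3.16 and 3.63 CPM against 10.1 and 7.43 CPM, and *SOX17* had 0 UMIs in ISG15-high cells against 0.45 and 0.32 CPM.

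Of 12 genes of neural crest and sensory neurons 2 were lower, and of 16 placode and anterior neural genes 1 was lower (over all genes tested 0.174%). *STMN2*, a tubulin-binding protein of neurons, was at 70.7 and 66.2 CPM against 99.0 and 105 CPM, and *ELAVL3*, an RNA-binding protein of neurons, at 9.06 and 8.12 CPM against 16.01 and 15.8 CPM. Both were called against ISG15-low cells but not against all other cells (edgeR adjusted p = 0.2 and 0.108), nor under the added limits described below (edgeR adjusted p = 0.0703 and 0.23). *LHX2*, a forebrain factor, was called in both comparisons and was at 2.91 and 3.48 CPM against 7.68 and 9.22 CPM. In the placode list 4 genes were higher and 5 lower with the block (over all genes tested 7.13% and 5.28%). Against all other cells 3 were higher and 2 lower (over all genes tested 0.908% and 1.52%). No gene of the surface ectoderm, amnion, steroid, mesoderm, blood or endothelium lists was called at an adjusted p below 0.05 in edgeR. At an unadjusted p below 0.05 they held 2, 4, 2, 0, 1 and 0 higher and 0, 0, 0, 2, 2 and 2 lower genes in this order, against 7.37% and 6.38% of all genes tested. DESeq2, with 1.94% and 0.916% over all genes, called 4 amnion and 2 steroid genes higher and 1 mesoderm gene lower. With the block 5, 4, 4, 0, 1 and 0 were higher and 0, 1, 0, 3, 0 and 1 lower, against 7.13% and 5.28% of all genes tested. Against all other cells, which include those the limits leave out, 5 amnion, 3 steroid, 2 mesoderm and 2 endothelium genes were lower and none of these lists held a higher gene in edgeR. *VIM* was the only call of the mesenchyme list in edgeR (9 genes tested, median -0.16). DESeq2 called 1 higher and 1 lower, and the block gave 2 higher and 2 lower. Against all other cells 6 genes were lower (median -2.31), where the rule itself limits collagens.

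Blood cells could be looked for directly, since they carry interferon genes in many tissues. The 12 blood and immune markers summed to 10.7 and 12.8 CPM in ISG15-high cells and 11.1 and 11.2 CPM in ISG15-low cells, and 0 of 8 tested were called. *PTPRC*, which marks all white blood cells, was at 0 and 0.077 CPM, against 0.062 and 0.024 CPM in ISG15-low cells.

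Cells with at least 10 *ISG15* UMIs turned up in every marker class, at unequal shares. Classes were set by UMIs per cell after the data were seen, namely *GABRP* at 10 or more, *CRABP1* at 15 or more and collagens at 10 or more, and within the limits, in this order, *MYL7* + *MYL4* + *ACTC1* at 10 or more, *POU5F1* at 3 or more with or without *DNMT3B* at 3 or more, *PAX6* at 3 or more, *TP63* at 4 or more and *RORB* at 4 or more. The first 3 classes are outside the rule by definition. They still held 177 and 177 *GABRP*-high cells, 25 and 19 *CRABP1*-high cells and 69 and 24 collagen-high cells with 10 or more *ISG15* UMIs. A cell can be in more than 1 of these 3 classes, so the counts overlap. The cells with 10 or more *ISG15* UMIs outside the limits were 222 and 210 in all.

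Shares were above that of cells with no class marker in both libraries for *GABRP*-high, *TP63* and *RORB* cells, though the intervals of *TP63* in both libraries and of *RORB* in library 2 overlapped it. *GABRP*, a receptor subunit known from amnion, marked cells of which 10.9% (exact 95% binomial interval 9.41 to 12.5) and 11.7% (10.1 to 13.4) had 10 or more *ISG15* UMIs. For *TP63*, the factor of stratified epithelium, it was 10.2% (8.35 to 12.2) and 9.83% (7.92 to 12.01), and for *RORB* 11.5% (8.61 to 14.9) and 9.35% (6.74 to 12.6). *PAX6* cells, with a factor of eye and brain, had 12.4% (9.59 to 15.8) and 6.13% (4.31 to 8.42). The intervals of the libraries did not overlap for *PAX6*, whereas they did for the other 3.

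Shares were below that of cells with no class marker in both libraries where *POU5F1* or heart genes were found. They were 2.02% (0.815 to 4.11) and 3.40% (2.17 to 5.05) in cells with *POU5F1* and *DNMT3B*, and 2.47% (1.44 to 3.92) and 4.52% (3.29 to 6.04) in cells with *POU5F1* and little *DNMT3B*. Cardiac cells had 2.48% (0.681 to 6.24) and 2.38% (0.494 to 6.80). *CRABP1*-high cells had 8.36% (5.48 to 12.1) and 4.15% (2.52 to 6.40), and collagen-high cells 7.86% (6.17 to 9.84) and 4.05% (2.61 to 5.96), so both were above it in library 1 and below it in library 2 before cells were set to an equal depth. Cells with no class marker stood at 7.09% (5.91 to 8.42) and 6.96% (5.91 to 8.13). This interval was overlapped by that of cardiac cells in both libraries and by that of cells with *POU5F1* and little *DNMT3B* in library 2. The intervals cover counting error only and take cells as independent, so nothing is concluded from their overlap. No test was made, since 2 libraries cannot reach an exact p of 0.05.

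The classes differed in depth, and its part in the shares was not tested beyond the thinning below. *POU5F1* and *DNMT3B* cells were the deepest, with median depths of 44020 and 39397 UMIs against 27950 and 25895 for *TP63* cells. Medians were 32626 and 31158 UMIs for *GABRP*-high cells and 25356 and 23210 UMIs for cells with no class marker. With each cell thinned to 15000 UMIs and at least 5 *ISG15* UMIs asked, the shares were 1.74% and 2.45% for *POU5F1* and *DNMT3B* cells, 10.3% and 10.0% for *TP63* cells and 8.93% and 10.7% for *GABRP*-high cells. They were 5.13% and 3.58% for *CRABP1*-high cells and 4.89% and 4.22% for collagen-high cells, below the 7.67% and 7.74% of cells with no class marker in both libraries. Thinning left out 3 and 24, 32 and 67, and 47 and 63 cells of the first 3 of these classes, and 26 and 67, 80 and 96, and 142 and 316 of the other classes.

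**Figure D5:**
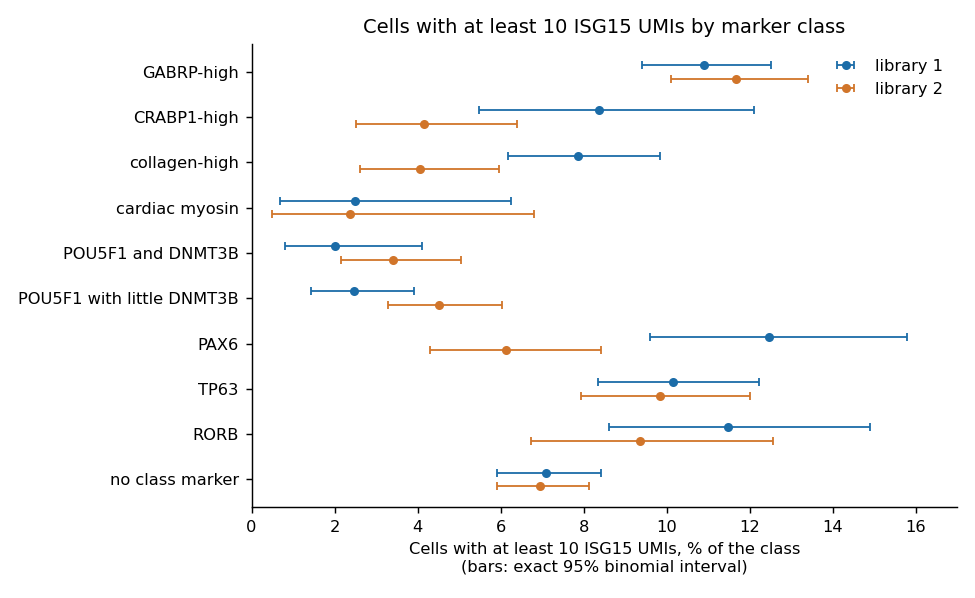
Percentage of cells with at least 10 *ISG15* UMIs (x axis) in each marker class (rows) for library 1 (blue) and library 2 (orange), with exact 95% binomial intervals that cover counting error only. The *GABRP*-high class stands at 10.9% and 11.7% and the class with *POU5F1* and *DNMT3B* at 2.02% and 3.40%.

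*IFI6* had higher values in the ISG15-rich cells of every class in both libraries, which was not tested. It was at 892 and 791 CPM in *TP63* cells with at least 10 *ISG15* UMIs against 32.3 and 28.1 CPM below 10, at 514 and 604 CPM against 36.3 and 34.5 CPM in *PAX6* cells, and at 416 and 342 CPM against 45.2 and 44.4 CPM in cells with *POU5F1* and *DNMT3B*. Outside the limits it was at 659 and 809 CPM against 27.8 and 29.9 CPM in *GABRP*-high cells and 195 and 274 CPM against 29.2 and 30.1 CPM in *CRABP1*-high cells. For *B2M* the difference varied with class. In *PAX6* cells it was at 122 and 151 CPM against 5.24 and 5.20 CPM, but in collagen-high cells at 85.1 CPM against 78.7 CPM in library 1 and at 138 CPM against 86.2 CPM in library 2. Only 4 and 3 cardiac cells had 10 or more *ISG15* UMIs, with *IFI6* at 134 and 107 CPM against 21.1 and 22.5 CPM and *B2M* at 51.8 and 21.4 CPM against 45.8 and 39.3 CPM.

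Narrower comparisons were added after the data were seen. They hold fewer cells and UMIs than the whole, and the part of this in lost calls was not tested. With both groups limited to cells with fewer than 3 UMIs of *POU5F1* and of *DNMT3B* and fewer than 10 of the heart genes (324 and 301 ISG15-high cells), 106 of 18105 genes were higher (0.585%) and 12 lower (0.0663%). Against all other cells under the same limits 226 of 18932 were higher (1.19%) and 500 lower (2.64%). Against ISG15-low cells they held 88 of the 118 higher and 4 of the 33 lower genes. The median of the epiblast list was then -0.22 and that of the cardiac list -0.28, with 0 calls in either in edgeR, and 3 epiblast genes and 1 cardiac gene lower at an unadjusted p below 0.05 (over all genes tested 4.67% were higher and 3.73% lower). The limits cap *POU5F1*, *DNMT3B* and heart genes that are in these lists, so part of this shift is set by the limits themselves.

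Of the 15 named higher genes, 10 were called in these cells, 5 within *TP63* cells, 6 within *PAX6* cells and 12 within cells with no class marker. Among the 4 genes called in each of these comparisons were *ISG12(A)*, *APOA1* and *AGRN*. *ALDH1A1* had a log2 fold change of 0.97 ± 0.10 in the limited cells and 1.24 ± 0.11 with no class marker, but 0.04 ± 0.16 within *TP63* cells, where it was not called (edgeR adjusted p = 0.976). *NQO1* was at 0.38 ± 0.05 in the limited cells and was not called within *TP63* or *PAX6* cells. Of the 5 lower genes only *VIM* was called in the limited cells, at -1.19 ± 0.11, and within *TP63* and *PAX6* cells none was, *VIM* being at -0.30 and -0.18 there. Within cells with no class marker 2 of the 5 were called. These were *VIM* at -1.78 ± 0.13 (edgeR adjusted p = 1.28e-05) and *CDH2* at -0.949 ± 0.19 (edgeR adjusted p = 0.0394). In the limited cells *CDH2* was at -0.52 ± 0.11 (edgeR adjusted p = 0.0866).

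*IFITM3* and *IRF9* were called higher in each of these comparisons. *IFITM3* had log2 fold changes of 6.12 in the limited cells, 5.82 within *TP63*, 6.75 within *PAX6* and 6.03 with no class marker. *IRF9* had 4.42, 4.16, 4.38 and 4.55. Other interferon genes varied more, as *HERC5* had 3.19 within *TP63* and 2.05 within *PAX6*. Of the G2 and M phase genes, *UBE2C* and *CENPF* were called higher within *TP63* cells, at 0.37 and 0.33 (edgeR adjusted p = 0.0256 and 0.0453). Within *PAX6* cells they were at 0.09 and -0.23 and were not called. The number of higher genes was 81 of 14892 (0.544%), 96 of 14096 (0.681%) and 138 of 16271 (0.848%) within the 3 classes, and of lower genes 8 (0.0537%), 13 (0.0922%) and 26 (0.16%).

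The bulk libraries of pESCs held transcripts of some interferon genes. Deposited FPKM values, which are scaled by transcript length and library size, were added up over the transcripts of each gene, and are given for the libraries named IVFP25, PA_4P7 and PAP25 in this order. The labels do not say which of these lines, if any, gave the blastoids. The first name differs from the other names and may point to an embryo made by in vitro fertilization, which the labels do not say. *ISG15* was at 5.11, 3.92 and 3.57 FPKM, and *IFI6* at 8.01, 5.89 and 2.94 FPKM. *IFITM3* was at 42.0, 23.4 and 36.2 FPKM and *HERC5* at 38.4, 95.6 and 33.7 FPKM. *MX1* ranged from 0.219 to 7.61 FPKM and *IFI44L* from 0.0125 to 0.101 FPKM. Bulk values do not show whether a few cells or all cells carry a transcript, and FPKM cannot be set against CPM of UMIs.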

How the data were processed

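The members and the gene lists were chosen with earlier results of these data known. For scRNA-seq, per the labels and methods, reads were assessed in Dr.seq2, Cell Ranger 7.1.0 made the UMI counts on susScr11, and the authors deposited these raw counts of every barcode before cell calling (3364747 and 3442770 barcodes). The labels also name Seurat 4.3.0, whose output was not used. For bulk RNA-seq the authors trimmed with Trim Galore 0.6.4, mapped with HISAT2 2.2.1 and deposited FPKM values per transcript from StringTie 2.2.1. Their depth is unknown, no test was made, and the column names could not be tied to numbered samples.

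Counts were summed per library over ISG15-high cells, all other cells and ISG15-low cells (12024183 and 12933205 UMIs in ISG15-high cells, 146265096 and 168064210 in ISG15-low cells), filtered by filterByExpr, normalized by TMM and tested with edgeR 4.0.16 in R 4.3.3 (quasi-likelihood, Benjamini-Hochberg over all genes tested, adjusted p below 0.05). The 5 genes of the rule stayed out of the calls. Errors of log2 fold changes are SE from edgeR. CPM in the text are UMIs of a gene per 1000000 UMIs of the group, without TMM. Each library gave 1 sum to every group, and deviations of its sums from their group means correlated across genes (0.161 with ISG15-low, 0.147 with all other cells). Libraries therefore pair the sums, and blocking on library was tried as an alternative. Others were DESeq2 1.42.0, total counts, no filter, other *ISG15* limits, depth and mitochondrial limits, and each library alone. Doublets were kept and no caller was run. Cells above the 95th percentile of UMIs were left out in an alternative.

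On simulated counts for the comparison with ISG15-low cells (19002 genes), 37 of 67 genes changed 1.5-fold, 50 of 67 changed 2-fold and 55 of 66 changed 4-fold were called, with 5 of 18802 unchanged genes. For all other cells (20036 genes) it was 34 of 67, 44 of 67 and 56 of 66, with 5 of 19836. Of 30029 features 29862 (99.4%) matched the RefSeq annotation of Sscrofa11.1, which gave coordinates and promoters. Named genes were the rule's 5 genes, up to 6 of the highest CPM per list, and by the rule in the text genes beyond the interferon lists. Tables were made with Python 3.11.15, numpy 2.4.6, pandas 2.3.3 and scipy 1.17.1. Some items are not reported here.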

Additional observations from a re-analysis of the deposited data

Results flagged for a closer look

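Signal was also found in barcodes outside the cells described. Below the UMI limit of its library, 28 barcodes in library 1 and 35 in library 2 held at least 10 *ISG15* UMIs. Their median depth was 7481 and 6806 UMIs, and *ISG15* stood at 2847 and 3119 CPM in them, above the 151 and 135 CPM of empty droplets. *IFI6* was at 1259 and 1417 CPM, *IFITM3* at 958 and 848 CPM and *B2M* at 318 and 348 CPM in the same barcodes. At least 10 UMIs in a shallow barcode ask for a higher level than in a deep one, so these values cannot be set against those of ISG15-high cells.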

How the results depend on the processing

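Counts of called genes moved more than their directions. Against ISG15-low cells, where 118 genes were higher and 33 lower, DESeq2 gave 368 and 174, no filter on low counts 279 and 195, the replicate block 1354 and 1004, at least 20 *ISG15* UMIs 193 and 81, at least 300 CPM of *ISG15* in the cell 191 and 62, and leaving out cells above the 95th percentile of UMIs 195 and 61. Lower genes numbered 73 with total counts, 21 with at least 5 *ISG15* UMIs, 12 with the added limits on *POU5F1*, *DNMT3B* and heart genes, 13 within *PAX6* cells and 8 within *TP63* cells. Against all other cells, where 182 were higher and 305 lower, DESeq2 gave 332 and 508, the block 1085 and 1426, and the added limits 500 lower. The other counts stayed within 1.5 times. The share of ISG15-high cells was 3.68% and 3.501% with at least 20 *ISG15* UMIs and 5.92% and 5.615% with at least 5.

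Of named genes called in either setting, *EPHA6* turned to -0.33 and *PRSS16* to 0.29 within *PAX6* cells, *PRSS16* to 0.16 with no class marker and *PTGES* to 1.11 within *PAX6* cells (log2 fold changes). Over all calls against ISG15-low cells, the sign turned for 2 of 107 higher and 9 of 31 lower genes tested within *PAX6* cells, 7 of 113 and 4 of 32 within *TP63* cells, and 0 of 117 and 1 of 33 with no class marker, and the cause was not tested. For the 33 lower genes, 17 were also called with at least 5 *ISG15* UMIs and 10 in cells of 20000 to 40000 UMIs. The block changed no sign of a call, brought 60 further named genes past the threshold and lost none. Each library alone gives a fold change but no test, so no count of calls is given without a library. The log2 fold change of 49 named genes kept its sign and moved by more than its SE without replicate 1, and that of 47 without replicate 2. Among the other 132 and 134 named genes, an uncalled gene whose sign turned was counted as not moved. At this size and depth the simulation recovered 37 of 67 genes changed 1.5-fold.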

Other observations

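Genes beyond the lists and outside the rule for named genes were read after their values were seen. *ATP10A*, a phospholipid flippase, was at 8.98 and 8.27 CPM in ISG15-high cells against 1.68 and 1.53 CPM in ISG15-low cells, *HSH2D*, an adaptor known from blood cells, at 16.97 and 20.0 CPM against 4.59 and 4.86 CPM, and *ETV7*, a repressor of the ETS family, at 1.91 and 1.86 CPM against 0.301 and 0.303 CPM. All 3 were called higher in both comparisons. Their absence from the lists does not make them genes that do not answer interferon, which was not tested.

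Also called higher than in ISG15-low cells were 3 genes picked from the calls, with no list of their kind tested. *SRXN1*, which repairs peroxiredoxins, was at 23.4 and 24.1 CPM against 16.4 and 15.2 CPM. *GCLC*, which makes glutathione, was at 88.2 and 75.7 CPM against 59.8 and 55.9 CPM, and *ME1*, which makes NADPH, at 255 and 265 CPM against 189 and 171 CPM. *GCLC* and *ME1* were not called against all other cells, where they stood at 80.3 and 73.4 CPM and 259 and 239 CPM.

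Among genes called lower in both comparisons were *ZEB2*, a repressor of epithelial genes, at 1.75 and 3.56 CPM against 9.04 and 10.5 CPM, and *CDH11*, a cadherin of mesenchyme, at 12.3 and 10.8 CPM against 21.4 and 21.3 CPM. In all other cells *CDH11* was at 43.1 and 36.9 CPM. These include the collagen-high cells that the rule leaves out, so that call may be set in part by the rule.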
